A study of Mus musculus with 8 samples.

Results

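The genes described here are 10 junction genes of epithelial cells, chosen by name from the adherens and tight junction genes of the mouse: Cdh1, Epcam, Cldn1, Cldn3, Cldn4, Cldn7, Cldn8, Ocln, F11r and Tjp1. They are 10 of 21938 protein-coding genes in the GENCODE M21 annotation of the mm10 assembly, and each was examined over its gene body plus 50 kb on either side. The samples were breast tumors of Balb/c mice, profiled by ChIP-seq for H3K27ac, an acetylation of histone H3 that marks promoters and enhancers in use. Control tumors (n = 2) had the genotype PyMT;Rag1KO, in which the MMTV promoter drives the polyoma middle T oncogene and the lack of Rag1 leaves the host without T and B cells of its own. Test tumors (n = 2) had the genotype K14-TSLPtg;PyMT;Rag1KO, in which the keratin 14 promoter also drives thymic stromal lymphopoietin (TSLP), an epithelial cytokine. All mice of both groups had received CD4+ T cells when 4 weeks old, so that the groups differed in the TSLP transgene. In the titles the word tumor stands for control samples and cyst for test samples, and the labels give neither a grade nor a cell composition for any single tumor.

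Epithelial cells are held together by junctions at their lateral membranes. In adherens junctions, E-cadherin (Cdh1) binds its like on the neighboring cell, and Epcam is a homophilic adhesion protein found all along the epithelial membrane. Tight junctions lie above them and seal the space between cells. Claudins form the seal and set which ions pass it, occludin (Ocln) and junctional adhesion molecule A (F11r) are membrane proteins of the same belt, and zonula occludens 1 (Tjp1) is the scaffold that links them to actin. Luminal cells of the breast are rich in E-cadherin, Epcam and the claudins 3, 4 and 7. Transcription factors of the Snail and Zeb families can repress such genes through a short element called an E-box, with the letters CAGGTG.

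Each tumor was described by a list of acetylated intervals (peaks), with 69861 in control 1 and 67850 in control 2, compared with 65763 in test 1 and 59762 in test 2. Test 2 stood apart with the fewest intervals and the least covered length (64.3 Mb, against 67.8 to 73.1 Mb in the other tumors). The lists give the position and width of a peak but no height, and the read depth behind them is unknown, so that a wider or additional peak may reflect depth. Promoters of luminal marker genes held a peak for 9 of 10 genes in control 1 and test 1 and for 8 of 10 in control 2 and test 2. Foxa1, also a luminal factor, had no peak in its window in any tumor. Promoters of fibroblast markers held a peak for 3 and 3 of 10 genes in the control pair against 2 and 0 in the test pair, those of endothelial markers for 5 and 3 against 2 and 0, those of myoepithelial markers for 7 and 3 against 5 and 0, and those of myeloid markers for 6 and 5 against 4 and 3. T cell marker promoters held a peak for 1, 1, 1 and 0 of 10 genes in the same order, those of epidermis markers for 1 of 7 in every tumor, and those of adipocyte and liver markers for 0 of 6 each. Test 2, with a count of 0 for fibroblast, endothelial and myoepithelial markers, also had the fewest peaks. The marker counts are given without the share of all promoters that held a peak in each tumor. They therefore do not show a loss particular to these cell types. In a whole tumor, fewer cells of a type and less acetylation per cell cannot be told apart.

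The promoter sequences of these genes are given by RefSeq (GRCm38.p6) as windows of 250 bases before to 50 bases after a start site. 10 windows matched 8 of the 10 genes, and Cdh1 and Cldn8 were without an entry. The E-box CAGGTG was found on either strand in 7 of the 10 windows, which belong to 6 genes (Epcam, Cldn3, Cldn4, Cldn7, Ocln and F11r), and in 20.2% of 32851 promoter windows of the mouse. Both windows of Ocln overlap and share an E-box. The GC box GGGCGG was found in 9 of 10 windows (35.7% of all windows), and the AP-1 letters TGANTCA in 2 of 10 (7.81% of all). The Grainyhead-like letters AACNNGTT were found in 0 of 10 (4.204% of all) and TATAAA in 0 of 10 (13.6% of all). The 4 windows with a pair of E-boxes are shown, with that of Tjp1, which has none and lies at a start far downstream of the annotated 5′ one. Peaks covered all 300 bases of each in all 4 tumors, as they did in the other windows of Cldn7 and Ocln, which are not shown. The windows of Cldn1 (58 to 84 bases) and F11r (53 to 134 bases) were covered in part in every tumor, and that of Cldn3 in test 1 (93 bases). The E-box of F11r lay outside the peak in every tumor. Capitals mark the E-boxes, read as CAGGTG or, from the opposite strand, CACCTG. The sequence is that of the reference genome, from which the Balb/c genome may differ.
Epcam, chr17:87635729-87636028, plus strand: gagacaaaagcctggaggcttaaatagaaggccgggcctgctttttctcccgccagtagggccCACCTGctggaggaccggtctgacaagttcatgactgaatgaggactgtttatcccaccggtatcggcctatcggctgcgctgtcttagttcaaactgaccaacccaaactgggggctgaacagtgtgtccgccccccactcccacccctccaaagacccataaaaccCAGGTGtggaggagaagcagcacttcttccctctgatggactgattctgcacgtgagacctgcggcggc
Cldn4, chr5:134946885-134947184, minus strand: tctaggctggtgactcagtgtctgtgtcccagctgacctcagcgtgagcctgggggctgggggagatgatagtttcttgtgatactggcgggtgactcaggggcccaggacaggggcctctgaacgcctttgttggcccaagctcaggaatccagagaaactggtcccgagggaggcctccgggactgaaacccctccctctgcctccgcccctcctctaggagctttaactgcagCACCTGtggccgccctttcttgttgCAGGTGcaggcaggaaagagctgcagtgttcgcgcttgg
Cldn7, chr11:69965171-69965470, plus strand: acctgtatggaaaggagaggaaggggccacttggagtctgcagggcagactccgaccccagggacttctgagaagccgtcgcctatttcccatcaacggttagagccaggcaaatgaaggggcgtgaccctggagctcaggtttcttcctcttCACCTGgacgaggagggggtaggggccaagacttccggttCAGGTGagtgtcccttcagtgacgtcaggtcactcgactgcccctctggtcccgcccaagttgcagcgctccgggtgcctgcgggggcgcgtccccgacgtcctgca
Ocln, chr13:100552449-100552748, minus strand: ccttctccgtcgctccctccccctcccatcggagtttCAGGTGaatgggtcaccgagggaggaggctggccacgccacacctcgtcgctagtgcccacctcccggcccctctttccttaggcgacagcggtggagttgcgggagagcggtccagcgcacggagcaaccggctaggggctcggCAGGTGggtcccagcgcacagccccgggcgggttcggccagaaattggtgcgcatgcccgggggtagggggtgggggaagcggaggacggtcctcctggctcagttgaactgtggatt
Tjp1, chr7:65371195-65371494, minus strand: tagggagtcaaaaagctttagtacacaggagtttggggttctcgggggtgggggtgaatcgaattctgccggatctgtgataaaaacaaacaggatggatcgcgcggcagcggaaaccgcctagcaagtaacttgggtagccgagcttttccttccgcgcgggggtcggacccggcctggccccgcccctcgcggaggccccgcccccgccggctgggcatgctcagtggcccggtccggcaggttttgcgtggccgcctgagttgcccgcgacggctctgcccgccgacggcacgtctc
Counted from the start site as base 1, the E-boxes of Epcam begin at -187 and -19. Those of Cldn4 begin at -14 and 12, so that they flank the start. Those of Cldn7 begin at -97 and -57, and those of Ocln at -213 and -68. A match of letters is a description and does not show that a factor was bound.

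To ask whether the genes were marked as active, the promoter (1 kb either side of the annotated gene start) was examined in each tumor. A promoter peak was present in every tumor for 9 of the 10 genes, where 49.6% of all 21938 genes had one in all 4 tumors. The exception was Tjp1, whose annotated 5′ start at 65527781 on chromosome 7 was without a peak in any tumor. No member had a promoter peak that was particular to the control pair (0.533% of all genes) or to the test pair (0.301% of all genes).

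Cdh1 (chr8:106603351-106670246, plus strand) lay in the longest acetylated domain of the group. A region of 22277 bp ran from -0.789 to 21.5 kb relative to the gene start, past the promoter and well into the gene body. Peaks covered 22182 bp of it in control 1, 21344 bp in control 2, 21444 bp in test 1 and 20910 bp in test 2. Control 1 held it as 1 unbroken interval and the other tumors as 3 or 4 intervals, with a first interval of 10472 bp in control 2, 10533 bp in test 1 and 10311 bp in test 2. A second region of 16315 bp, without an exon in it, followed between 25.7 and 42.0 kb. It was covered over 15336 bp in control 1, 13352 bp in control 2, 15899 bp in test 1 and 11051 bp in test 2, in 2, 4, 2 and 8 intervals. Test 2 was the lowest in both regions and held the second as the most fragments, while test 1 was the highest in the second. The gene body was covered over 58.8% and 54.8% in the control pair against 59.7% and 49.8% in the test pair, so that the groups overlapped.

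Epcam (chr17:87635979-87651129, plus strand) had a promoter interval of nearly fixed extent, 4512 bp in control 1, 4440 bp in control 2, 4462 bp in test 1 and 4436 bp in test 2. All 11 regions in its window were present in all 4 tumors, and no other member had every region shared. The widest was not the promoter but an intergenic region of 6871 bp upstream, at -24.3 to -17.4 kb, with 6605 bp covered in control 1, 4646 bp in control 2, 6156 bp in test 1 and 6311 bp in test 2. Control 2 was the lowest there, and the other three lay close together.

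**Figure D1:**
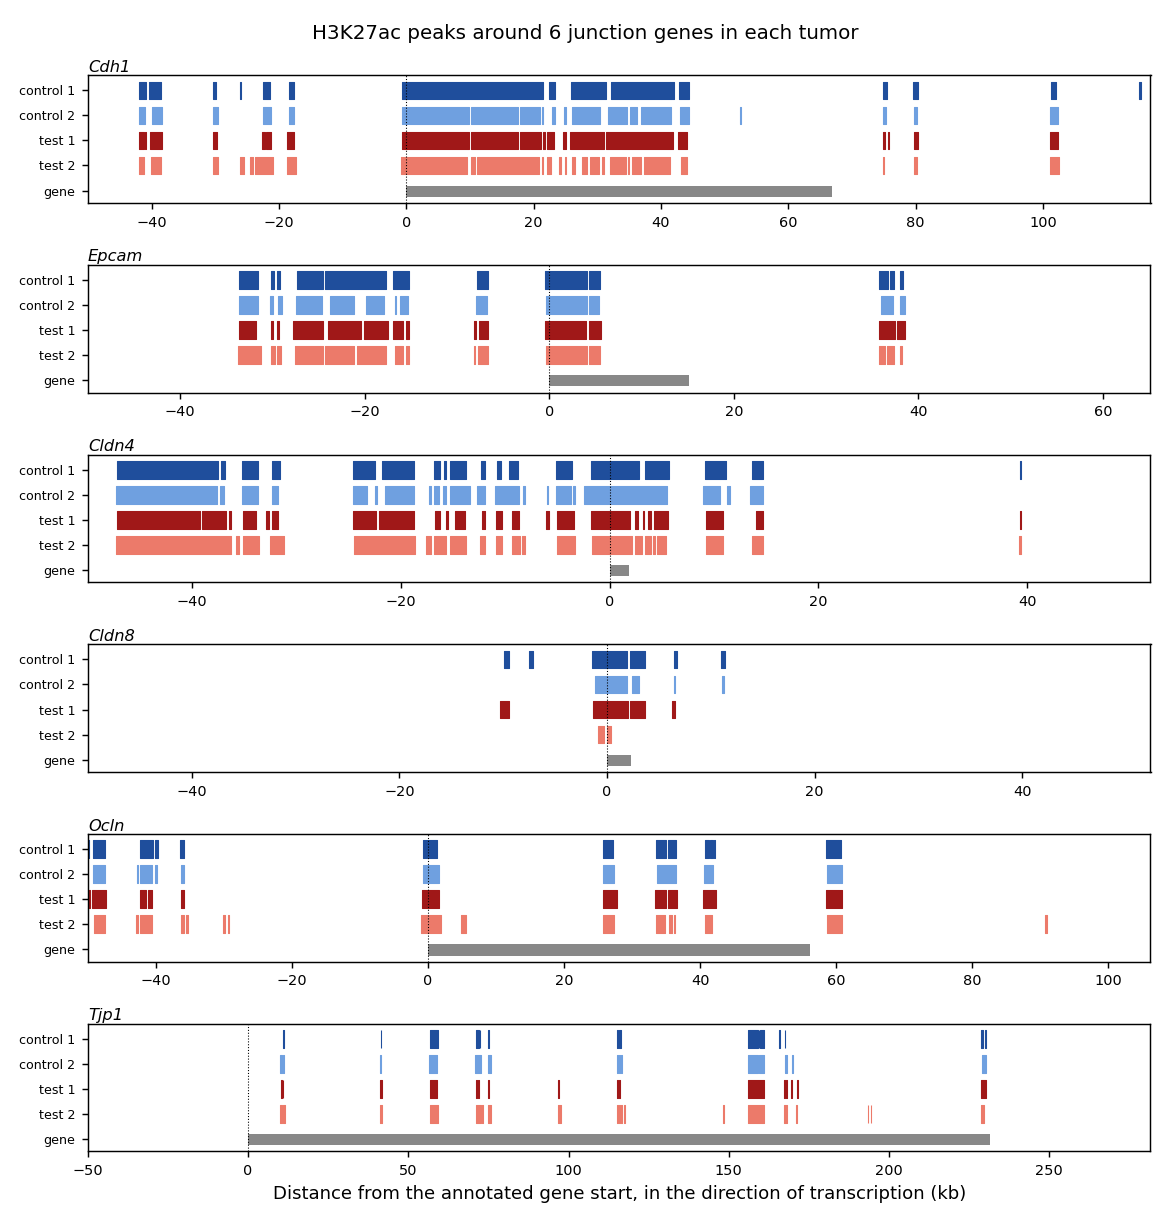
H3K27ac peaks of each tumor around 6 of the genes, by distance in kb from the annotated gene start in the direction of transcription (dotted line), with the gene body as a grey bar; blue rows are control tumors and red rows test tumors. Cdh1 carries a domain from its start to 44.4 kb, broken by gaps, in all 4 tumors, the start of Tjp1 carries no peak while a site 156 to 161 kb downstream does, and Cldn8 holds only narrow peaks in test 2.

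Cldn3 (chr5:134986214-134987472, plus strand) and Cldn4 (chr5:134945119-134946934, minus strand) are short neighboring claudin genes, the start of Cldn4 lying at -39.3 kb relative to that of Cldn3, so that their windows overlap and share regions. Both gene bodies were covered over 100% in every tumor. The region over Cldn3 was 10996 bp wide, with 10102 bp covered in control 1, 10094 bp in control 2, 10439 bp in test 1 and 10950 bp in test 2. Both test tumors were above both control tumors at this region. The region over Cldn4 was 8137 bp wide, with 6837 bp covered in control 1, 8007 bp in control 2, 5866 bp in test 1 and 6109 bp in test 2. Here the order was the opposite, with both control tumors above both test tumors. The control tumors held this region as 2 and 1 intervals and the test tumors as 5 each. It also overlapped an exon of the neighboring gene Mettl27. Among the intergenic regions between the genes that all 4 tumors shared, 1 was separate between the groups in each direction. A region of 5889 bp was covered over 5075 and 4250 bp in the control pair against 5606 and 5858 bp in the test pair, with the test tumors higher, and a region of 1933 bp nearer to Cldn4 over 1522 and 1920 bp against 989 and 1469 bp, with the control tumors higher.

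Cldn7 (chr11:69964779-69967885, plus strand) had a promoter interval of 3820 bp in control 1, 3113 bp in control 2, 3089 bp in test 1 and 3181 bp in test 2. Its window was the most gene-rich, with 10 other genes starting in it, and its widest region (4320 bp) lay over the promoter of the translation factor gene Eif5a rather than over Cldn7. Cldn1 (chr16:26356642-26371841, minus strand) stood in an almost bare window with 4 regions, 1 of them shared by all tumors. This shared region lay at the start of the gene and extended into it, with 2824 bp covered in control 1, 2218 bp in control 2, 2381 bp in test 1 and 3778 bp in test 2. In contrast to Epcam and Cldn4, the promoter interval of Cldn1 reached upstream only to between -6 and -32 bp from the annotated start in the 4 tumors.

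Cldn8 (chr16:88560828-88563183, minus strand) differed most between tumors. Its promoter interval was 3378 bp wide in control 1, 3059 bp in control 2 and 3396 bp in test 1. In test 2, by contrast, the same region was covered over 928 bp in 2 intervals, the wider of them 593 bp. Both control tumors and test 1 also had a peak of 746 to 1496 bp at the 3′ end of the gene and 1 of 181 to 288 bp at 6.31 kb from the start, both of them without a peak in test 2. Test 2 was also the tumor without any promoter peak of the fibroblast, endothelial and myoepithelial markers and the tumor with the fewest peaks. Mean window coverage of the 10 luminal markers was 23.0% and 19.8% in the control pair against 23.8% and 21.1% in the test pair, and so was not the lowest in test 2. Whether these have a part in the low value of Cldn8 was not tested.

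Ocln (chr13:100496507-100552718, minus strand) had a promoter interval of 2117 bp in control 1, 2369 bp in control 2, 2502 bp in test 1 and 2939 bp in test 2, wider in both test tumors than in both control tumors. Its widest region was intronic, 3281 bp at 33.3 to 36.6 kb into the gene, with 2640 and 2844 bp covered in the control pair against 3012 and 1896 bp in the test pair. F11r (chr1:171437535-171464603, plus strand) had a promoter interval of 5286 bp in control 1, 5870 bp in control 2, 5736 bp in test 1 and 5791 bp in test 2. Like that of Cldn1, it began at the start itself, between -58 and 23 bp, and extended into the gene.

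Tjp1 (chr7:65296165-65527781, minus strand) is the longest of the genes at 231617 bp and has several annotated starts. Those at its 5′ end were without a peak. The starts at 157 kb downstream, 65371239 and 65371015, lay in a peak in all 4 tumors, and the RefSeq promoter window shown above is that of this downstream start. The region over them was 5278 bp wide, the widest of the window, with 4688 bp covered in control 1, 4874 bp in control 2, 5274 bp in test 1 and 5235 bp in test 2. Both test tumors were above both control tumors and held the region as 1 interval, where the control tumors held it as 3 and 2 intervals. With any annotated start counted in place of the 5′ one, all 10 genes had an acetylated promoter in all 4 tumors.

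The comparison between groups was made on window coverage, the percent of bases of the gene body plus 50 kb on either side that lay in peaks. It is a measure per length, and it includes the domains of neighboring genes that lie in the window. Averaged over the 4 tumors the order was Cldn3 (44.1%), Cldn4 (33.4%), Cdh1 (27.9%), Cldn7 (22.7%), Epcam (19.0%), F11r (12.5%), Ocln (9.69%), Tjp1 (4.32%), Cldn8 (4.29%) and Cldn1 (2.60%). The ranges over the 4 tumors did not overlap between neighbors in this order down to Tjp1, whereas Tjp1 and Cldn8, and Cldn8 and Cldn1, overlapped. The order depends on the window. In a ranking added after the data were seen, with each base given to the nearest gene start, Cdh1 had the highest mean (63.4%), ahead of Cldn3 (55.0%) and Cldn4 (52.0%), and Cldn8 (8.33%) came before Ocln (7.26%) and Tjp1 (5.52%). The median over the 10 genes was 16.2% in control 1 and 14.6% in control 2, compared with 16.3% in test 1 and 15.8% in test 2. The median of all genes with coverage was between 4.23% and 4.86% in the same tumors, below that of the junction genes in every tumor.

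**Figure D2:**
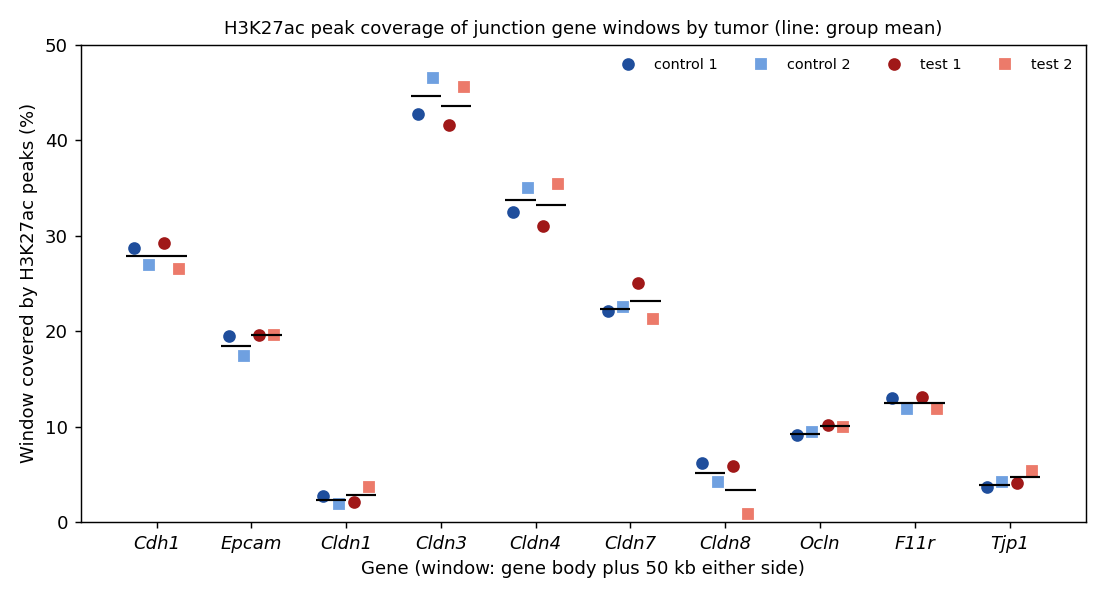
Percent of each gene window (gene body plus 50 kb either side) covered by H3K27ac peaks, 1 point per tumor, with control tumors in blue, test tumors in red and the mean of each group (n = 2) as a black line. Cldn3 was the highest at 41.6% to 46.6%, the groups overlapped for all genes but Epcam and Ocln, and Cldn8 in test 2 (0.907%) lay below the other 3 tumors (4.17% to 6.20%).

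Window coverage was higher in both test tumors than in both control tumors for 2 of the 10 genes, Epcam and Ocln, where 17.3% of 18693 genes with coverage had this order. It was higher in both control tumors for 0 of the 10 genes, where 13.0% of all genes had that order. With 2 tumors a group, an exact two-sided permutation test cannot give a p below 0.333, so that the differences are described and none is called significant. A share of 2 in 10 is near the background. The median difference over the 10 genes, test minus control, was 0.295 percentage points, within the SD of 0.416 over the 4 possible pairs of a test and a control tumor. The median over all genes was 0.0192 percentage points. The value of the 10 genes depended on the processing. It was -0.0415 with peaks of at least 1 kb alone and 0.767 with peaks within 1 kb joined.

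Epcam was covered over 19.4% of its window in control 1, 17.4% in control 2 and 19.6% in both test 1 and test 2. The test tumors were nearly equal and control 1 was just below them. The means were 18.4% ± 1.45 (SD, n = 2) in control and 19.6% ± 0.0246 (SD, n = 2) in test tumors, a difference of 1.16 percentage points against an SD of 1.18 over the pairings. The difference thus rested on control 2, and without it was 0.132 percentage points. The groups of Epcam overlapped with peaks of at least 1 kb alone (difference of 0.285), with peak numbers made equal (1.15), within 100 kb of the gene body (0.430) and with each base given to the nearest gene start (1.35). Ocln was covered over 9.14% in control 1 and 9.41% in control 2, compared with 10.2% in test 1 and 10.0% in test 2. Its tumors lay close together within each group and the groups did not overlap. The means were 9.27% ± 0.188 (SD, n = 2) and 10.1% ± 0.134 (SD, n = 2), a difference of 0.836 percentage points against an SD of 0.189. For Ocln the order was the same within 10 kb and within 100 kb of the gene body and with peak numbers made equal between tumors, but the size of the difference was not stable. It was 1.83 percentage points within 10 kb and 2.46 with each base given to the nearest gene start, and with peaks of at least 1 kb alone the groups overlapped at 0.238.

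Among the remaining adhesion genes, Cdh1 was covered over 28.8% and 26.9% in the control pair against 29.2% and 26.5% in the test pair. The spread within each group exceeded the difference between them, which was 0.0198 percentage points. F11r behaved alike, with 13.0% and 11.9% against 13.1% and 11.9%, and a difference of 0.0453 percentage points. Of the claudins, Cldn7 was covered over 22.1% and 22.6% in the control pair against 25.0% and 21.3% in the test pair, and Cldn1 over 2.72% and 1.93% against 2.07% and 3.67%. In Cldn7 the test tumors fell on either side of the control tumors, and in Cldn1 test 1 lay between the control tumors and test 2 above them. Cldn8 was covered over 6.20% in control 1 and 4.17% in control 2, compared with 5.86% in test 1 and 0.907% in test 2. The means were 5.19% ± 1.43 (SD, n = 2) and 3.39% ± 3.51 (SD, n = 2), and test 1 lay between the control tumors. Tjp1 was covered over 3.67% and 4.16% in the control pair against 4.07% and 5.36% in the test pair, overlapping by a narrow margin.

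For Cldn3 and Cldn4 the result depended on the window. Within 50 kb, Cldn3 was covered over 42.8% and 46.6% in the control pair against 41.6% and 45.6% in the test pair, and Cldn4 over 32.4% and 35.0% against 31.0% and 35.4%, with overlapping groups. Within 10 kb of the gene body, however, Cldn3 was covered over 58.3% and 57.3% in the control pair against 58.9% and 66.4% in the test pair, a difference of 4.78 percentage points. Cldn4 was covered over 51.3% and 60.5% against 46.1% and 48.6%, a difference of -8.56 percentage points. The neighboring claudins thus had opposite orders close to their own bodies, both test tumors above both control tumors at Cldn3 and both below at Cldn4. With each base given to the nearest gene start, Cldn3 kept its order (difference of 6.61 percentage points) and the groups of Cldn4 overlapped with a difference of -7.84 percentage points. Within 10 kb of the body, 18.6% of all genes with coverage had both test tumors higher and 12.9% both control tumors higher.

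The windows of the 10 genes held 140 distinct regions once the peaks of all tumors were joined where they overlapped. 75 of these (53.6%) were present in all 4 tumors, against 38.1% of 91238 regions over the genome. Another 10 were present in 3 tumors, 15 in 2 and 40 in 1. The shared regions had a median width of 1865 bp and the others of 285 bp. Of those found in a single tumor, 6 and 7 belonged to the control tumors (4.29% and 5.00% of the regions, against 10.2% and 9.20% over the genome) and 12 and 15 to the test tumors (8.57% and 10.7%, against 7.90% and 8.84%). Distinct peaks numbered 115 and 117 in the control pair against 127 and 126 in the test pair, a ratio of 1.09 where that over the genome was 0.912, but they covered alike amounts, 190.7 and 186.9 kb against 194.6 and 190.1 kb. With peaks of at least 1 kb the ratio was 0.973, and with peaks within 1 kb of each other joined it was 0.974. Overlap between pairs of tumors, as the Jaccard index of covered bases, ranged from 0.745 to 0.811 in these windows and from 0.589 to 0.691 over the genome.

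**Figure D3:**
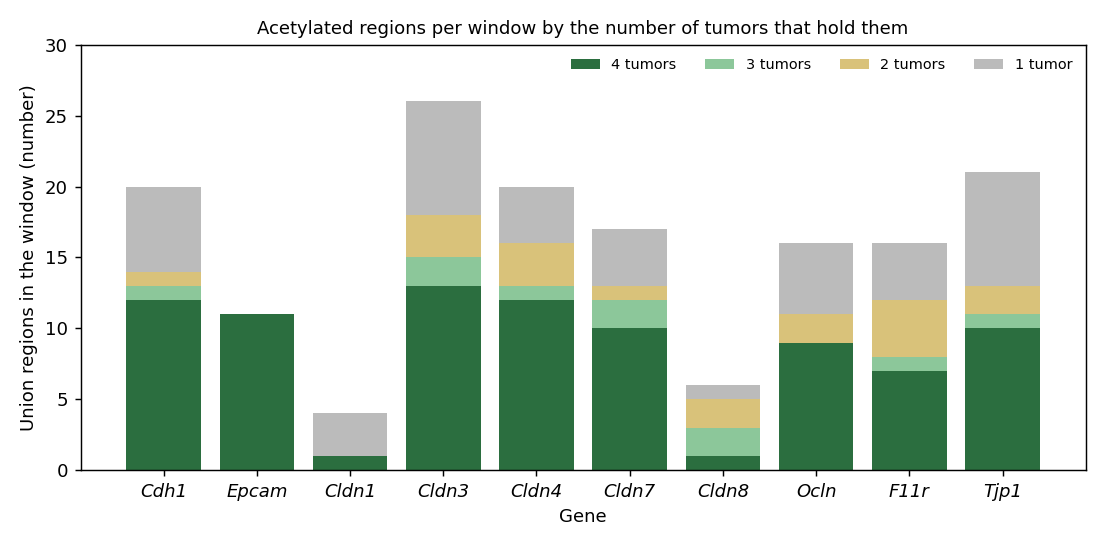
Number of acetylated regions in the window of each gene, stacked by whether 4, 3, 2 or 1 of the tumors hold a peak there. All 11 regions of Epcam are shared by the 4 tumors, whereas Cldn8 and Cldn1 share 1 region each; regions in the overlapping windows of Cldn3 and Cldn4 are counted in both.

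A region was called control-only when both control tumors and neither test tumor had a peak in it, and test-only in the converse case. The windows held 3 control-only regions, in the windows of Cldn8, Ocln and F11r (3 of 10 genes, where 22.3% of all genes had such a region), and 3 test-only regions, 1 at F11r and 2 at Tjp1 (2 of 10 genes, where 12.2% of all genes had one). No such region lay at the promoter of a member. The control-only region of Cldn8 (chr16:88551857-88552174, intergenic) lay 11.01 to 11.33 kb from the gene start, past the 3′ end, with 318 bp covered in control 1 and 287 bp in control 2. That of the Ocln window (442 bp) was intergenic, at -40.2 to -39.76 kb upstream and nearest to the start of Marveld2, another tight junction gene. That of the F11r window (427 bp) overlapped an exon of Nectin4, an adherens junction gene. Only the region near Cldn8 was thus nearest to the start of a member. With peaks of at least 1 kb alone, 1 control-only and 1 test-only region were left. With peaks within 1 kb joined, the counts were 1 and 2.

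The test-only regions all lay in introns of the member itself. In F11r the region (327 bp, 18.1 to 18.4 kb from the start) was covered over 266 bp in test 1 and 312 bp in test 2, with 251 bp in both. In Tjp1, a region of 1002 bp (chr7:65430187-65431188) was covered over 431 bp in test 1 and all 1002 bp in test 2, and it lay between the unmarked 5′ start and the acetylated downstream start. The other region of Tjp1, of 679 bp (chr7:65356090-65356768), lay 171 kb from the 5′ start, downstream of both. It was covered over 314 bp in test 1 and 386 bp in test 2, but the peaks shared 21 bp alone. With a peak required to cover at least 0.5 of a region, 1 test-only region was left. The middle 300 bases of the region near Cldn8, of that in F11r and of both in Tjp1 are shown, since these regions lie nearer to the start of a member than to that of any other gene. Capitals mark the E-box CAGGTG, the Grainyhead-like letters AACNNGTT and the AP-1 letters TGANTCA. All are given on the plus strand of GRCm38.p6.
Cldn8 control-only, chr16:88551866-88552165: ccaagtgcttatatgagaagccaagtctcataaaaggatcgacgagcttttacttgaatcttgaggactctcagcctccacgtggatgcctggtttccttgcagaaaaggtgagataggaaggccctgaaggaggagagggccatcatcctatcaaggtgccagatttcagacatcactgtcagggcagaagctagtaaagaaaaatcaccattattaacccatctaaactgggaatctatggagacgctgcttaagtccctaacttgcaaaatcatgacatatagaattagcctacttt
F11r test-only, chr1:171455641-171455940: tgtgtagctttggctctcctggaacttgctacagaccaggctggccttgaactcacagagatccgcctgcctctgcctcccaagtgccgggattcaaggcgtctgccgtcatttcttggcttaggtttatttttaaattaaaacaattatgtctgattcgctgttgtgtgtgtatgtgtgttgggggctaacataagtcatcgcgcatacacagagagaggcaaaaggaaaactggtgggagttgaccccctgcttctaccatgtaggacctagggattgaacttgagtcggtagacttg
Tjp1 test-only, downstream, chr7:65356279-65356578: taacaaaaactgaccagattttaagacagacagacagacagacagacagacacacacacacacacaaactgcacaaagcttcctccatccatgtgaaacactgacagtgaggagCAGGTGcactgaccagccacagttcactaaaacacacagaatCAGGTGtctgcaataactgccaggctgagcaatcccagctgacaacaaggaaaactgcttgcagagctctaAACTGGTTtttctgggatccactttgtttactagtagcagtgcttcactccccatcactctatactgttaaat
Tjp1 test-only, upstream, chr7:65430538-65430837: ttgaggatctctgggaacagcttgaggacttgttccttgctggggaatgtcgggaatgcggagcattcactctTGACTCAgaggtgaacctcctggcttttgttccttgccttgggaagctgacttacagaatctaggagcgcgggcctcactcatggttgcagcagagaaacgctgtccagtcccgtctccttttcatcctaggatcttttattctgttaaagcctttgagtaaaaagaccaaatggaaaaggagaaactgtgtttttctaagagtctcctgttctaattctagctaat
The downstream Tjp1 sequence holds 2 E-boxes and AACTGGTT, and the upstream one holds TGACTCA, while the Cldn8 and F11r sequences hold none of these letters. Of 62929 regions of at least 300 bp, 21.2% hold an E-box in their middle 300 bases, 5.27% the Grainyhead-like letters and 10.7% the AP-1 letters.

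The other genes of the junction machinery were examined in the same way. Of 55 further claudin, tight junction and adherens junction genes, 10 (18.2%) were higher in both test tumors, close to the 17.3% of all genes, and 4 (7.27%) in both control tumors, against 13.0% of all genes. The median difference was 0.0689 percentage points. A promoter peak was present in all 4 tumors for 31 of them, against 49.6% of all genes, and in no tumor for 14. Among 18 other claudins, 11 had no promoter peak in any tumor and 3 had one in all 4, whereas all 5 claudins among the members had one in all 4. Cldn22 and Cldn24 are neighboring genes with nearly the same window and were higher in both test tumors. Cldn22 was covered over 0.572% and 2.25% in the control pair against 3.90% and 7.61% in the test pair, a difference of 4.35 percentage points, and Cldn24 differed by 4.28 percentage points. Cldn17, which lies next to Cldn8, was the 1 of these claudins with both control tumors above both test tumors, with 0.787% and 0.463% against 0.281% and 0.409%. Its window overlaps that of Cldn8 and takes in the control-only region described there. The promoter of Cldn17 itself held a peak in test 2 alone.

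Of 8 other membrane genes of the tight junction, Marveld3 (7.46% and 5.70% in control against 8.55% and 8.24% in test tumors) and Marveld2, or tricellulin (10.4% and 10.5% against 10.5% and 12.3%), were higher in both test tumors. Both belong to the same protein family as occludin, and the window of Marveld2 overlaps that of Ocln. Esam, an adhesion molecule of endothelial cells, had the opposite order, with 2.90% and 3.35% in control and 2.14% and 1.40% in test tumors. Of 15 other scaffold genes, Pard6b, a polarity protein, was higher in both test tumors (5.93% and 6.43% against 8.18% and 11.1%), as was Magi3 with a difference of 0.413 percentage points. Tjp3, or zonula occludens 3, went the other way, from 21.5% and 20.5% in control to 20.3% and 16.4% in test tumors. In all, 3 of the 15 were higher in both test tumors and 1 in both control tumors, near the shares of 17.3% and 13.0% over all genes.

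Of 14 other adherens junction genes, Cdh3 (P-cadherin), which lies upstream of Cdh1 with Gm10073 between them, was higher in both test tumors, at 8.36% and 7.59% against 9.403% and 9.58%. Its window overlaps that of Cdh1 and takes in the start of Cdh1, so that the values of the 2 genes are not independent. In the Cdh1 window the groups overlapped. The promoter of Cdh3 itself held a peak in control 2 and test 1 alone. Cdh2 (N-cadherin) was also higher in both test tumors, with a difference of 0.0487 percentage points on a coverage of 0.437% to 0.530%. Cdh5, the cadherin of endothelial cells, had more coverage in the control pair, with 1.08% and 0.517% against 0.232% and 0, and moved with the endothelial marker promoters given above. Mean window coverage of the 10 endothelial markers was 5.38% and 5.40% against 4.99% and 4.45%, with 4 of the 10 (Kdr, Emcn, Eng and Erg) higher in both control tumors (13.0% of all genes) and 0 in both test tumors (17.3%). The promoters of Pecam1 and Eng held a peak in both control tumors alone. That of Emcn held one in test 1 also, and that of Flt1 in control 1 and test 1. Tie1, Flt1 and Robo4 had higher mean window coverage in the test pair, with overlapping groups. The part of endothelial cells in this was not tested. Of 11 desmosome genes, Pkp2 (7.01% and 7.29% against 8.12% and 9.66%) and Dsp, or desmoplakin (2.86% and 2.58% against 3.19% and 4.28%), were higher in both test tumors. Dsc3, a desmocollin of basal cells, had the converse order, with 2.501% and 0.921% against 0 and 0.488%. In all, 3 of the 11 desmosome genes were higher in both test tumors (17.3% of all genes) and 1 in both control tumors (13.0%), with a median difference of 1.01 percentage points against 0.0192 over all genes. With so few genes, nothing is read from these counts.

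Of 6 genes encoding transcription factors of the epithelial to mesenchymal transition (Snai1, Snai2, Zeb1, Zeb2, Twist1 and Twist2), Zeb2 had more coverage in the control pair, with 6.86% and 5.29% against 4.57% and 3.27%. This 1 of 6 is near the 13.0% of all genes with both control tumors higher, and 0 of 6 were higher in both test tumors, where 17.3% of all genes were. The median difference over these genes was -0.514 percentage points, with negative differences in all 6, where 48.6% of all genes with coverage had one. In a comparison added after the data were seen, 4 of the 6 differences were negative without test 2, where the share over all genes was 36.1%. It was 6 of 6 without test 1 (60.2% of all genes), without control 1 (47.3%) and without control 2 (47.6%), so that the count rested in part on test 2 and the background moved with it. Snai1 was covered over 21.6% and 21.9% in the control pair against 22.5% and 16.5% in the test pair, and Zeb1 over 0.837% and 1.498% against 0.860% and 0.492%. For both the groups overlapped. Several of these factors are also made by fibroblasts and macrophages, whose marker promoters are counted above. Mean window coverage was 3.48% and 3.21% against 3.49% and 2.47% for the fibroblast markers and 9.47% and 8.68% against 9.08% and 7.53% for the myeloid markers, the lowest values being those of test 2. The part of those cells was not tested.

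**Figure D4:**
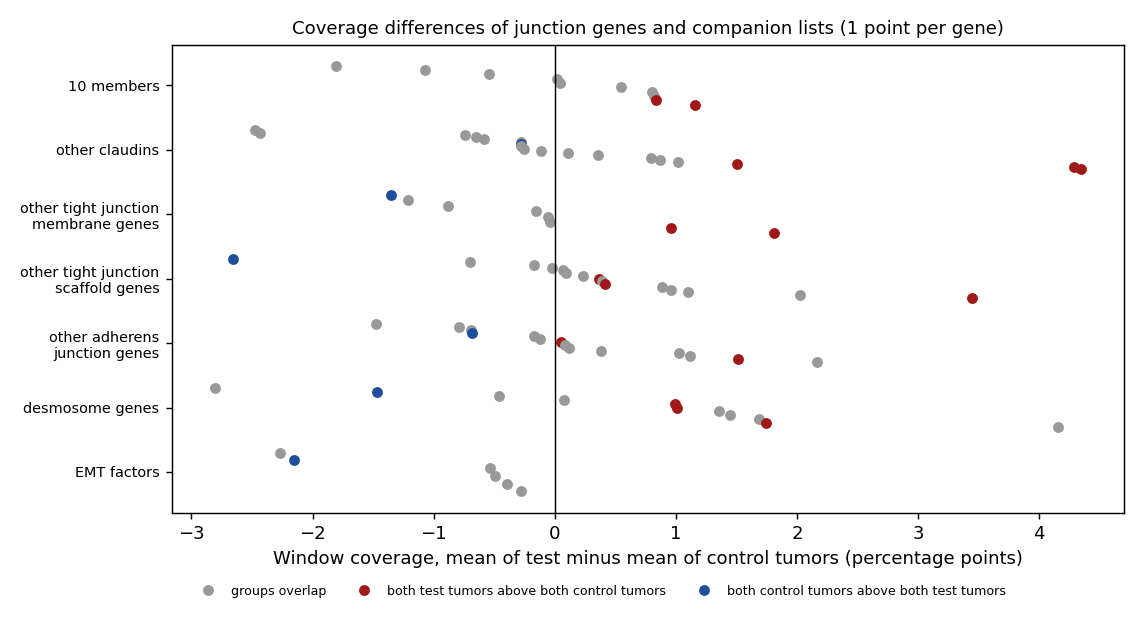
Difference in window coverage, test mean minus control mean in percentage points, with 1 point per gene for the 10 members and for each list of further junction genes and transition (EMT) factors; red and blue points are genes whose groups do not overlap. The members lie between -1.80 and 1.16 percentage points with 2 red and 0 blue points, and all 6 transition factors lie below 0.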

How the data were processed

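H3K27ac ChIP-seq had been performed on 4 tumors with matched inputs, which were not analysed here. Alignment (BWA, mm10) and peak calling (MACS2, per tumor against its input) were done by the authors. The deposited lists hold positions in bp of cleaned and merged peaks, without a count, signal or p-value, so that depth is unknown and coverage mixes depth with acetylation. Groups were taken from the genotype per the labels, and tumor numbers are names only. Where nothing else is said, n = 2 tumors a group from separate mice.

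Overlapping intervals were joined in each tumor, and coverage and union regions were computed with Python 3.11.15 and NumPy 2.4.6 over 21 chromosomes. A peak was counted with an overlap of at least 1 bp. Promoters were 1 kb either side of the GENCODE M21 gene start. Groups were compared by whether their tumors overlapped, since permutation of 2 against 2 cannot go below 0.333. The background left out genes with 0 coverage in all tumors. Scripts were tested on simulated peaks. The members and lists were chosen with earlier results of these data known. From each further list, up to 2 genes a direction were named, those with the largest absolute difference among genes whose groups did not overlap; Snai1 and Zeb1 were named in addition after their values were seen. Igsf5, with 2 annotation entries, was left out. Motifs were searched on both strands of RefSeq promoter windows.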

Additional observations from a re-analysis of the deposited data

How the results depend on the processing

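The values over the 10 genes, and the difference of each gene, were recomputed with peaks of at least 1 kb, with peak numbers made equal (the 59762 widest of each tumor), with peaks within 1 kb joined, with windows of 10 or 100 kb around the gene body, with each base given to the nearest gene start, and without each tumor. The promoter count, which does not use the gene window, was recomputed with wider promoters and other starts instead. The lists of further genes, the marker promoters and the Jaccard indices were not recomputed, apart from the signs of the transition factors. No paired analysis was possible because the tumor numbers were given in accession order and pair no mice. Of 100 single-gene differences, 90 moved by less than the spread over the pairings, and 10 moved by more. Leaving out a tumor cannot move a difference by more than this spread. Those alternatives could therefore not add to the 10. Epcam and Ocln, with separate groups, changed sign in 0 alternatives. Where the groups are separate, leaving out a tumor cannot change the sign. Only the other alternatives could have shown a change for these genes. Of the genes with overlapping groups, 7 changed sign in 20 values, 11 of them with a tumor left out, and in 5 values the groups were then separate (Cldn3 at 4.78 within 10 kb and 6.61 nearest to the own start, and, without test 1, Cdh1 at -1.30, Cldn4 at 1.65 and Cldn7 at -1.04 percentage points).

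The number of genes with both test tumors higher (2) was 0 with peaks of at least 1 kb, 1 with equal peak numbers, 1 within 100 kb, 3 with joined peaks, 3 within 10 kb, 3 nearest to the own start, and 3 to 5 with a tumor left out, where 29.4% to 48.5% of all genes had this order. The number with both control tumors higher (0) was 1 within 10 kb (12.9% of all genes) and 1 to 3 with a tumor left out (20.5% to 46.6%). The share of all genes with both test tumors higher was 15.5% to 19.7% in the other alternatives. The median difference (0.295 percentage points) was 0.767 with joined peaks, 0.777 with bases nearest to the own start, -0.0415 with peaks of at least 1 kb, and 0.442 to 0.821 with a tumor left out. Control-only regions (3) numbered 1 with peaks of at least 1 kb, 1 with joined peaks, 1 within 10 kb, 1 nearest to the own start, and 4 to 10 with a tumor left out. Test-only regions (3) numbered 1 with peaks of at least 1 kb, 1 where peaks had to cover at least 0.5 of a region, and 4 to 19 with a tumor left out. With 1 tumor in a group these counts are higher by construction, since fewer tumors have to agree in order. The ratio of peak numbers (1.09) was 0.973 with peaks of at least 1 kb, 1.16 with equal numbers, 0.974 with joined peaks, 1.22 within 10 kb, 1.07 within 100 kb, 1.197 nearest to the own start, and 1.08 to 1.10 with a tumor left out. For the other changes the cause was not tested. Acetylated promoters (9 of 10 genes) numbered 8 to 10 in all alternatives. Depth, which is unknown, limits every count of peaks, and with 2 tumors a group the exact permutation test cannot pass its threshold.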
